A study of Homo sapiens with 4 samples.

Results

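Polyamine metabolism was examined in PC9 cells, an established human lung adenocarcinoma line, through 10 genes. They were AOC1, the synthesis genes ODC1, AMD1, SRM and SMS, the catabolic genes SAT1, SMOX and PAOX, and the regulators OAZ1 and AZIN1. AOC1 was chosen by its measured fall in TPX2 knockdown cells, and the other 9 genes were added as its pathway. All 10 were found among the 18134 genes of the expression table, and all 10 had enough counts to be tested. Because AOC1 was selected on the difference between the groups, its values are given as a description with no test.

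Polyamines (putrescine, spermidine and spermine) are small cations that bind nucleic acids and that growing cells need. ODC1, ornithine decarboxylase, makes putrescine. SRM and SMS, spermidine synthase and spermine synthase, extend it with aminopropyl groups that AMD1, S-adenosylmethionine decarboxylase, prepares. SAT1 acetylates spermidine and spermine, PAOX oxidises the acetylated forms, and SMOX oxidises spermine directly. AOC1 (diamine oxidase) is a copper-dependent enzyme that oxidises putrescine and also histamine. Antizyme, encoded by OAZ1, binds ODC1 and sends it to the proteasome, and AZIN1 (antizyme inhibitor) is an ODC1-like protein without decarboxylase activity that sequesters antizyme.

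RNA was compared between PC9 cells with a control hairpin (shNC, 2 libraries) and PC9 cells with a hairpin against TPX2 (shTPX2, 2 libraries). Both lines were made by lentiviral infection with pLKO.1 plasmids and puromycin selection, so the vector and the drug are shared by the controls, and the knockdown rests on 1 hairpin. All 4 libraries were made from polyadenylated RNA and carry the same batch label. No source says that the libraries of a group came from separate cultures, so the p-values below measure the spread between these libraries, which may be technical.

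The hairpin target is shown because it defines the knockdown. In GRCh38 it lies in coding sequence of TPX2, at chr20:31783721-31783741 on the plus strand, and it matched the GENCODE v29 transcripts of 1 gene, TPX2. Exact matches were found in 0 of the 10 polyamine genes.

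shTPX2 target: CGTGAACTTGATCCCAGAATA

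The libraries held 20906441 to 21972583 expected counts. Such a count estimates how many reads a gene gave. The libraries did not group by hairpin: the correlation of log2 CPM (counts per depth, on a log scale) was highest between shNC 1 and shTPX2 1, at 0.9825, against 0.9718 between the shNC libraries and 0.9792 between the shTPX2 libraries. The pairs of shNC 2 with the shTPX2 libraries were the lowest, at 0.9694 and 0.9662. TPX2 itself measured 55.0 and 112 TPM (a level corrected for transcript length and library depth) in shNC and 43.4 and 43.8 TPM in shTPX2. The groups did not overlap, but the shNC libraries differed by 1.97-fold from each other. The fitted log2 fold change was −0.81 (95% interval −1.57 to −0.05, Benjamini-Hochberg adjusted p = 0.618 by quasi-likelihood in edgeR), and it was −0.24 without shNC 2. The epithelial markers EPCAM, CDH1, EGFR, KRT7, KRT8, KRT18 and KRT19 were at 78.4 TPM or more in every library. The alveolar markers NKX2-1, NAPSA and SFTPB reached at most 1.67 TPM. Among markers of other cells, PTPRC, CD3E, COL1A2, COL3A1 and VWF were at 0.69 TPM or less, while COL1A1 measured 5.72 to 11.99 TPM and PECAM1 4.20 to 14.4 TPM. PECAM1 was highest in shNC 2, and its part in the results was not tested.

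The background for the counts below was the whole table. After the filter on low counts, 14048 genes were tested. At an adjusted p under 0.05 edgeR called 0 of them (0%), while 1128 genes (8.03%) had an unadjusted p under 0.05. DESeq2, run as an alternative, called 111 genes at an adjusted p under 0.05. The study's criteria for differentially expressed genes (DEGs) used limma after voom. They asked for an unadjusted p not above 0.1 and a log fold change of 0.3 or more. The log was read here as log2, which the study does not state. The threshold was applied in both directions, since the study reports higher and lower genes. At these criteria 6.24% of the genes were higher in shTPX2 and 7.99% were lower. Without composition (TMM) factors the same criteria gave 578 higher and 1445 lower genes, compared to 876 and 1122 with them. The study reports other counts of higher and lower genes at its criteria. The 2 groups did not overlap for 39.6% of the genes.

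AOC1 (NCBI gene 26) lies on chromosome 7 from 150852120 to 150861504, on the plus strand of GRCh38. It measured 15.0 TPM in shNC 1, 20.1 TPM in shNC 2, then 3.65 TPM in shTPX2 1 and 3.73 TPM in library shTPX2 2. Among these 4 libraries, the level was thus high in both shNC libraries and low in both shTPX2 libraries, with no overlap. The authors' own group means for AOC1, 11.9 TPM in shNC and 2.10 TPM in shTPX2, lie below both libraries of each group. They therefore hold lower AOC1 values than those shown, and the lack of overlap was not examined for such values. The shTPX2 libraries were nearly equal, with 98 and 96 expected counts, against 384 and 509 in shNC. The group means were 17.6 ± 3.60 TPM and 3.69 ± 0.0566 TPM (SD, n = 2 each), and the fitted log2 fold change was −2.13, a level 4.37-fold lower in shTPX2. It stayed between −2.29 and −1.93 with each library left out in turn. Of the 14048 tested genes, 71 (0.505%) had a more negative log2 fold change. These values chose the gene and support nothing further. In bulk RNA, a smaller share of cells with AOC1 and less AOC1 RNA per cell cannot be told apart.

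**Figure D1:**
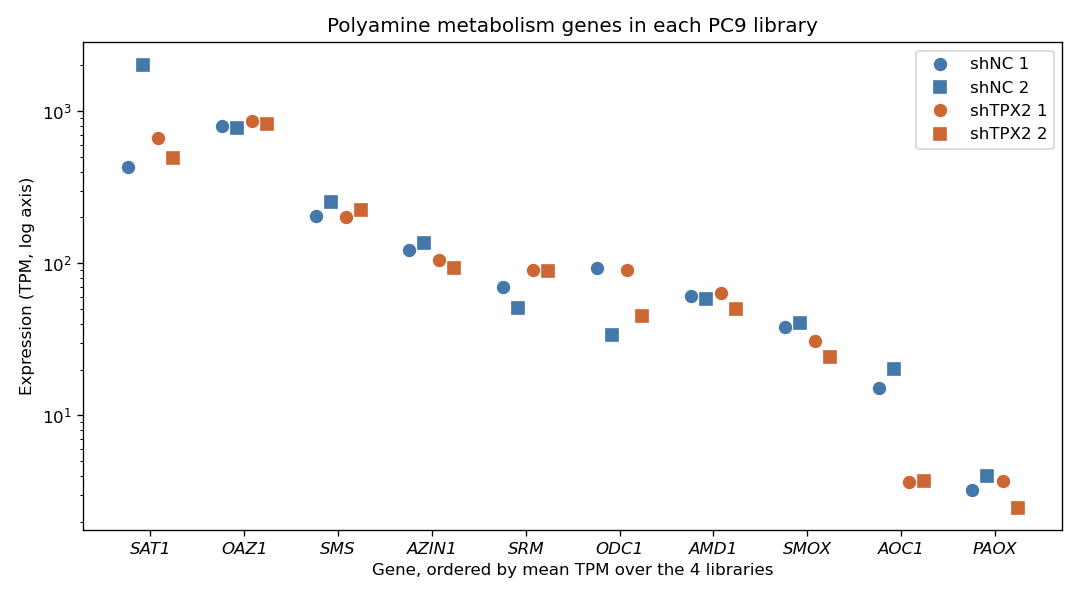
Expression of the 10 genes in each library, in TPM on a log axis. Blue marks are shNC and orange marks shTPX2, with circles for library 1 and squares for library 2. AOC1 stands at 15.0 and 20.1 TPM in shNC and at 3.65 and 3.73 TPM in shTPX2, while SAT1 at 2016 TPM and ODC1 at 33.9 TPM set shNC 2 apart from shNC 1.

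The levels of the 10 genes spanned more than 2 orders of magnitude in TPM, from PAOX at a mean of 3.35 TPM over the 4 libraries to SAT1 at 902 TPM. OAZ1 (mean 814 TPM) and SAT1 held the top 2 ranks in every library. SAT1 was ahead of OAZ1 in shNC 2 only, so their order does not hold beyond the spread. SMS (220 TPM) ranked 3 and AZIN1 (114 TPM) ranked 4 in all 4 libraries. SRM, ODC1 and AMD1 followed at means of 75.0, 65.6 and 58.4 TPM, and their order changed from library to library, with ODC1 ranked from 5 to 8. SMOX (33.5 TPM) was above AOC1 (10.6 TPM) in each library. AOC1 was above PAOX in 3 libraries, and in shTPX2 1 it was just under it, at 3.65 against 3.70 TPM.

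Among the 4 synthesis genes, SRM was higher in shTPX2 at the DEG criteria, and ODC1, AMD1 and SMS were not past them. None had an adjusted p under 0.05. The fitted log2 fold change was above 0 for all 4, with a median of 0.13, beside −0.01 over all tested genes. Of 10 alternative runs with edgeR or DESeq2, the sign turned in 2 for ODC1, 3 for AMD1 and 3 for SMS. In limma with quantile normalization, AMD1 and SMS also turned, to −0.02 each.

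SRM, which makes spermidine from putrescine, measured 70.0 TPM in shNC 1, 51.1 TPM in shNC 2, then 89.6 TPM in shTPX2 1 and 89.4 TPM in shTPX2 2. Both shTPX2 libraries were higher than both shNC libraries, and they lay close together. The log2 fold change was 0.68 (standard error 0.21, 95% interval 0.18 to 1.19, unadjusted p = 0.0154, adjusted p = 0.579 from edgeR). SRM stayed past the DEG criteria in each alternative run with limma, with each library left out too, where edgeR's log2 fold change ranged from 0.45 without shNC 2 to 0.96 without shNC 1. RefSeq lists 3 SRM pseudogenes, and the expected counts of SRM were not whole numbers before rounding.

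ODC1, the first enzyme of the pathway, measured 92.9 TPM in shNC 1, 33.9 TPM in shNC 2, then 90.8 TPM in shTPX2 1 and 45.0 TPM in library shTPX2 2. The groups overlapped, and library 1 was the higher one in each group. The gap between the shNC libraries was 2.84-fold, and 2.34% of the tested genes had a larger gap there. Fitted over all libraries, the log2 fold change was 0.21, and its 95% interval of −1.06 to 1.49 holds changes of about 2-fold in either direction (adjusted p = 0.943 from edgeR). It was 1.16 without shNC 1, where ODC1 passed the DEG criteria, and −0.36 without shNC 2. RefSeq lists a pseudogene, ODCP, for it. GENCODE v29 places 1 gene, SNORA80B, over ODC1 on the same strand.

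AMD1, which makes the aminopropyl donor, measured 61.3 and 58.4 TPM in the shNC libraries, against 63.4 and 50.4 TPM with shTPX2. SMS, which converts spermidine to spermine, measured 203 and 251 TPM in the shNC libraries, against 201 and 224 TPM with shTPX2. For both genes the groups overlapped. Fitted log2 fold changes were 0.05 for AMD1 (95% interval −0.41 to 0.51) and 0.04 for SMS (95% interval −0.38 to 0.47), with an adjusted p of 0.967 for each from edgeR. These 2 intervals were the narrowest of the synthesis genes, and they hold no change of 2-fold. Both signs turned with library size only (−0.025 and −0.029). RefSeq lists 4 pseudogenes of AMD1 and 1 of SMS, which could share reads with them.

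The 3 catabolic genes all had a fitted value below 0, with a median of −0.39. Over all 14048 tested genes 7185 were below 0. The sign turned in 1 of the 10 alternative runs with edgeR or DESeq2 for SAT1 and in 1 for PAOX. PAOX also turned, to 0.10, in limma with quantile normalization. Of 6 other catabolic genes, tested in the wider list below, 4 were above 0. SMOX was lower in shTPX2 at the DEG criteria, SAT1 and PAOX were not past them, and none of the 3 had an adjusted p under 0.05.

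SMOX, spermine oxidase, measured 38.2 TPM in shNC 1, 40.7 TPM in shNC 2, then 30.7 TPM in shTPX2 1 and 24.3 TPM in shTPX2 2. Both shTPX2 libraries were below both shNC libraries. The log2 fold change was −0.39 (standard error 0.19, 95% interval −0.85 to 0.07, unadjusted p = 0.0816, adjusted p = 0.668 from edgeR). SMOX passed the study's criteria narrowly. It was no longer past them without shNC 1, without shNC 2 or without shTPX2 2, when the log2 fold change in limma was −0.41, −0.38 and −0.22.

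SAT1, the acetyltransferase that starts the breakdown of spermidine and spermine, had the widest spread of the 10 genes. It measured 432 TPM in shNC 1, 2016 TPM in shNC 2, then 668 TPM in shTPX2 1 and 491 TPM in library shTPX2 2. The shNC libraries enclosed both shTPX2 libraries. Their gap was 4.56-fold, against a median of 1.22-fold over all tested genes, and 0.726% of the genes had a larger one. The log2 fold change of −0.94 (95% interval −2.45 to 0.56, adjusted p = 0.747 from edgeR) turned to 0.52 without shNC 2 and moved to −1.65 without shNC 1. SAT1 passed the DEG criteria without either of these libraries, as higher without shNC 2 and as lower without shNC 1. With all 4 libraries limma gave −0.57, not past the criteria. In shNC 2, TPX2 was also at its highest and ODC1 at its lowest of the 4 libraries.

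PAOX, which oxidises acetylated polyamines in peroxisomes and has 1 annotated gene overlapping it on its own strand, was the gene with the fewest counts, 48 to 75 per library. It measured 3.22 and 3.99 TPM in the shNC libraries, against 3.70 and 2.47 TPM with shTPX2, and the groups overlapped. The log2 fold change was −0.13 (95% interval −1.06 to 0.80, adjusted p = 0.953 from edgeR), an interval that holds changes of about 2-fold downwards.

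OAZ1 and AZIN1, which act on ODC1 from opposite sides, were each separated between the groups, in opposite directions and by small amounts. Such a separation was seen for 39.6% of all tested genes. OAZ1 measured 797 and 776 TPM in the shNC libraries, against 856 and 827 TPM with shTPX2, so that both shTPX2 libraries were higher. AZIN1 measured 122 and 135 TPM in the shNC libraries, against 105 and 92.5 TPM with shTPX2, so that both shTPX2 libraries were lower. For OAZ1 the log2 fold change was 0.22 (95% interval −0.19 to 0.64, adjusted p = 0.78 from edgeR). For AZIN1 it was −0.26 (95% interval −0.69 to 0.17, adjusted p = 0.758 from edgeR). Neither passed the DEG criteria with TMM factors. With library size only, AZIN1 passed them, at a log2 fold change of −0.33 in limma. Both genes kept their sign in each alternative run. RefSeq lists 1 OAZ1 pseudogene, which could share its reads. GENCODE v29 places 1 gene on the opposite strand over part of OAZ1 and 3 over AZIN1. It also places AC005258.1 over OAZ1 on the same strand. The strand setting of the counting is not given in the sources used here, so reads from the opposite-strand pairs cannot be told apart. No strand setting would separate the same-strand pair.

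**Figure D2:**
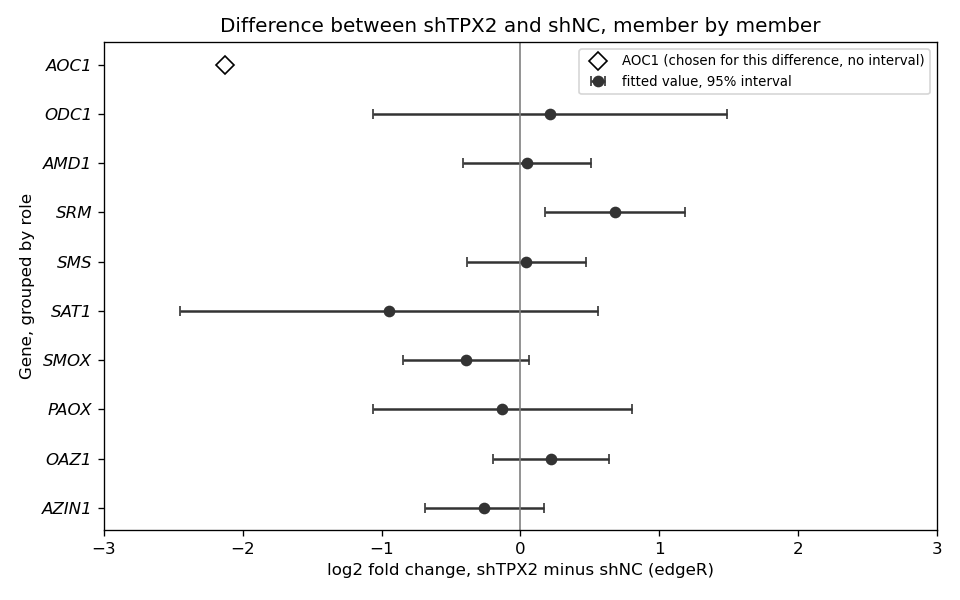
Fitted log2 fold change between shTPX2 and shNC for the 10 genes, from edgeR, with bars for the 95% interval. AOC1, at −2.13, has no interval because it was chosen for this difference. Of the other 9 genes, only the interval of SRM (0.18 to 1.19) lies on 1 side of 0, and SAT1 and ODC1 have the widest intervals.

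Without AOC1, the other 9 genes had 5 fitted values above 0 and 4 below, with a median log2 fold change of 0.04. The median had no stable sign. It was −0.029 with library size only, −0.065 without shNC 1, −0.009 without shNC 2 and −0.368 without shTPX2 1. The sizes of the 9 values ran from 0.04 to 0.94. At the DEG criteria 1 of the 9 was higher (SRM) and 1 was lower (SMOX), beside 6.24% and 7.99% of all tested genes. At an unadjusted p under 0.05 edgeR gave 1 of the 9, beside 8.03%. The groups did not overlap for 4 of the 9 (SRM, SMOX, OAZ1 and AZIN1), beside 39.6% of all tested genes. With counts this small, the shares of the 9 genes were near the background.

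Ratios of levels within a library do not depend on the scaling between libraries. OAZ1 exceeded AZIN1 in TPM by 6.51-fold and 5.74-fold in shNC and by 8.16-fold and 8.94-fold in shTPX2. This ratio was higher in both shTPX2 libraries, which restates the opposite separations of the 2 genes. The SMS to SRM ratio was 2.90 and 4.90 in shNC and 2.24 and 2.51 in shTPX2, lower in both shTPX2 libraries. With 2 libraries against 2, an exact permutation test cannot give a p below 0.333, and no test was made of these ratios. The SAT1 to ODC1 ratio was 4.64 and 59.5 with shNC, against 7.35 and 10.9 with shTPX2. Its spread within shNC was larger than any difference between the groups. The AMD1 to ODC1 ratio (0.66 and 1.72 with shNC, 0.698 and 1.12 with shTPX2) and the SAT1 to PAOX ratio (134 and 505 with shNC, 180 and 199 with shTPX2) overlapped between the groups. OAZ1 exceeded AOC1 by 53.0-fold and 38.6-fold in shNC and by 234-fold and 222-fold in shTPX2. That ratio restates the fall by which AOC1 was chosen and supports nothing further.

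**Figure D3:**
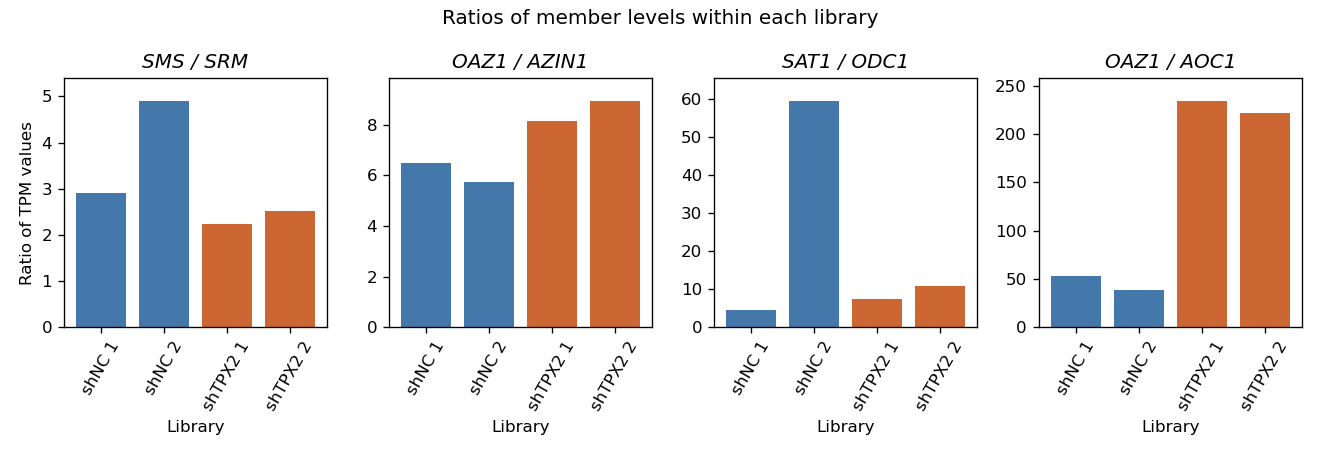
Ratios of TPM values between pairs of genes in each library, on linear axes that start at 0, with blue bars for shNC and orange bars for shTPX2. The OAZ1 to AZIN1 ratio is 5.74 to 6.51 in shNC and 8.16 to 8.94 in shTPX2, and the SAT1 to ODC1 ratio of shNC 2 (59.5) stands apart from the other 3 libraries. The OAZ1 to AOC1 ratio restates the fall by which AOC1 was chosen.

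ODC1 is a known target of the transcription factor MYC, which binds the E-box CACGTG. The windows from 250 bases before to 50 bases after annotated starts were searched for it in RefSeq (GRCh38.p14), and the motif reads the same on both strands. Windows were matched for 7 of the 10 genes, 10 windows in all, and 2 of the 10 windows held the motif, that of SRM and 1 of the 2 of ODC1. Of all 35116 windows 7.26% hold it. The matches are shown with the motif in capitals, in the direction of transcription. A match is a description of the sequence and not of binding. The SRM motif begins 199 bases before the start, and the ODC1 motifs begin 29 bases before and 5 bases after the second of 2 annotated starts. The positions are chr1:11060200-11060229, chr2:10448024-10448053 and chr2:10447990-10448019, all on the minus strand.

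SRM: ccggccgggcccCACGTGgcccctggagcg
ODC1, first motif: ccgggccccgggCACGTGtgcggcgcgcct
ODC1, second motif: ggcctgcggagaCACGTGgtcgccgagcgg

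MYC RNA, which was named after its values were seen, measured 52.4 and 47.7 TPM in the shNC libraries, against 84.3 and 46.6 TPM with shTPX2. It was high in shTPX2 1 alone and the groups overlapped (log2 fold change 0.52, 95% interval −0.21 to 1.24, adjusted p = 0.719 from edgeR). MAX, its partner, measured 58.8 and 58.5 TPM in the shNC libraries, against 54.7 and 68.3 TPM with shTPX2.

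The wider pathway was read from a list of 47 genes for precursor supply, the antizyme family, catabolism, hypusination, methylthioadenosine salvage, transport, histamine and the transcription of ODC1. Of these, 44 were in the table and 36 were tested. The fitted value was above 0 for 24 and below 0 for 12, with a median log2 fold change of 0.06. At the DEG criteria 1 of the 36 was higher (EIF5A) and 1 was lower (AOC2), beside 6.24% and 7.99% of all tested genes. In edgeR 0 of the 36 had an adjusted p under 0.05. At an unadjusted p under 0.05 edgeR gave 2 of the 36, beside 8.03% of all tested genes. The groups did not overlap for 12 of the 36, beside 39.6% of all tested genes. By role, fitted values were above 0 for 4 of 5 genes of methylthioadenosine salvage (median 0.27), 5 of 7 for transport (median 0.08), 3 of 5 for supply (median 0.18), 2 of 4 for hypusination (median 0.19), 4 of 6 for catabolism (median 0.02), 1 of 3 in the antizyme family (median −0.10), 2 of 2 for histamine (median 0.08) and 3 of 4 for the transcription of ODC1 (median 0.09). Over all tested genes 6863 were above 0 and 7185 below, and with library size only the median of the 36 was −0.003.

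EIF5A encodes the translation factor whose hypusine is built from spermidine. It measured 1067 and 981 TPM in the shNC libraries, against 1467 and 1277 TPM with shTPX2, higher in both shTPX2 libraries. Its log2 fold change was 0.55 (standard error 0.19, 95% interval 0.08 to 1.01, adjusted p = 0.596 from edgeR), and it was 0.43 and no longer past the DEG criteria without shTPX2 1. The enzymes that make the hypusine, DHPS and DOHH, were not past the criteria, with log2 fold changes of −0.02 and 0.40. The paralog EIF5A2 had a log2 fold change of −0.21.

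AOC2 and AOC3 are copper amine oxidases like AOC1, but act mainly on primary monoamines. AOC2 measured 1.24 TPM in shNC 1, 3.50 TPM in shNC 2, then 0.63 TPM in shTPX2 1 and 0.65 TPM in shTPX2 2. Both shTPX2 libraries were lower, at 18 counts each against 34 and 95. Its log2 fold change was −1.76 (standard error 0.59, 95% interval −3.17 to −0.34, adjusted p = 0.579 from edgeR), and it was −0.86 without shNC 2. AOC2 was not past the DEG criteria without shNC 2. Without shTPX2 1 or shTPX2 2 it was not past their p either, but the log2 fold change from edgeR stayed at −1.74 and −1.76. AOC3 measured 0.28 and 1.05 TPM in the shNC libraries, against 0.49 and 0.31 TPM with shTPX2, and its groups overlapped. AOC2 and AOC3 are close paralogs, so single values of either are uncertain.

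Histamine, the other substrate of AOC1, is made by HDC and methylated by HNMT. HDC had 0, 0, 0 and 1 counts in the 4 libraries and was not tested. HNMT measured 7.89 and 9.73 TPM in the shNC libraries, against 7.67 and 11 TPM with shTPX2, with a log2 fold change of 0.05 (95% interval −0.60 to 0.70). Of the receptors, HRH1 measured 5.98 to 7.58 TPM with overlapping groups, and HRH2 had at most 1 count in a library.

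In the other roles, the most abundant genes were AHCY for supply, OAZ2 in the antizyme family, SAT2 for catabolism, ADI1 for salvage and SLC3A2 for transport. Their log2 fold changes lay between −0.10 (OAZ2) and 0.35 (SLC3A2), and none was past the DEG criteria. SLC3A2, a subunit of amino acid transporters that has also been tied to polyamine export, measured 266 and 133 TPM in the shNC libraries, against 277 and 186 TPM with shTPX2. As in ODC1, library 1 was the higher one in each group. Among polyamine transporters of the P5B type, ATP13A3 measured 62.7 and 67.0 TPM in the shNC libraries, against 51.6 and 52.9 TPM with shTPX2 (log2 fold change −0.19), and ATP13A2 had overlapping groups.

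**Figure D4:**
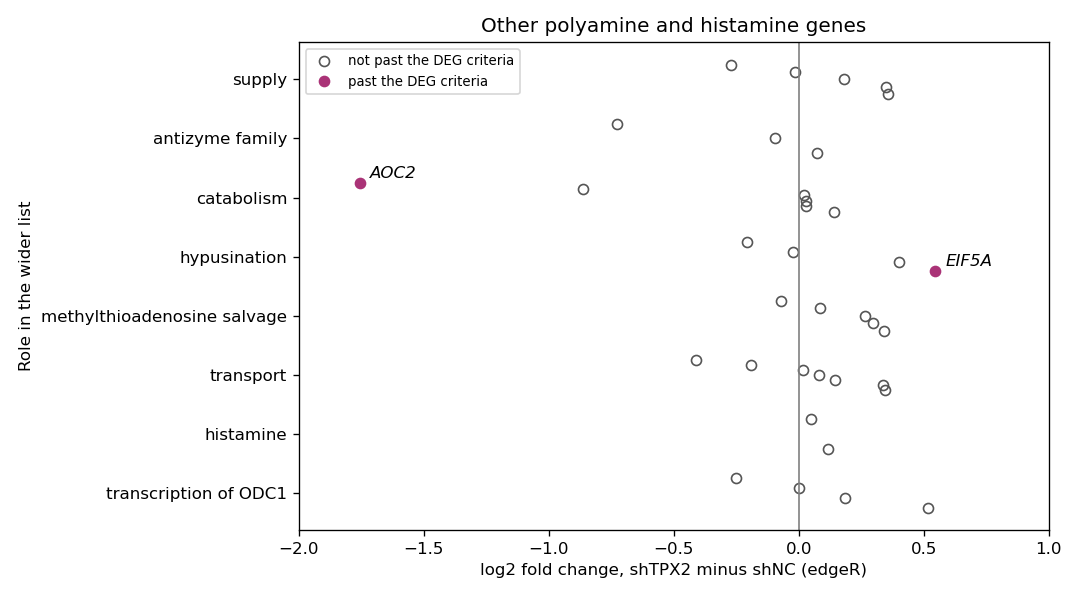
Fitted log2 fold changes (shTPX2 minus shNC, edgeR) of the 36 tested genes of the wider list, 1 point per gene, arranged by role. Filled points are past the DEG criteria, and they are AOC2 at −1.76 and EIF5A at 0.55.

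The genes with the profile most like that of AOC1 were found by the root mean square distance between log2 CPM profiles centred on their mean over the 4 libraries. The nearest 5 were PDZD2 (distance 0.0729), GOLGA8O (0.0981), GCNT1 (0.105), GPX3 (0.109) and ARMCX3 (0.162). PDZD2 and GOLGA8O are weakly expressed, with at most 5 counts per shTPX2 library, and GOLGA8O belongs to a family of near-identical copies. GCNT1, a glycosyltransferase, measured 4.49 and 5.01 TPM in the shNC libraries, against 0.96 and 1.1 TPM with shTPX2, and GPX3, a secreted glutathione peroxidase, 3.02 and 4.90 TPM against 0.82 and 0.75 TPM. The nearest to ODC1 were TTLL10 (0.049), ZCWPW1 (0.0932) and ACTRT3 (0.108), each higher in library 1 of both groups. TTLL10 and ACTRT3 are weakly expressed, with 3 to 13 and 16 to 49 counts per library. With 4 libraries these distances are a description. Genes near AOC1 are lower in shTPX2 by the way they were found, so their levels support nothing further.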

How the data were processed

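RNA-seq was analysed for 4 PC9 libraries, 2 with shNC and 2 with shTPX2, grouped by their titles. According to the methods of the study, SOAPnuke cleaned the reads, HISAT2 and Bowtie2 placed them, and RSEM or StringTie gave the gene values. The submitters' processing notes name HISAT2, featureCounts, DESeq2 and GRCh38. For each gene and library the deposited table holds an expected count, not scaled for depth, beside TPM and FPKM values scaled by transcript length and depth. The deposited group means were used in no test. FPKM values were not used.

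Expected counts were rounded to whole numbers (42.2% to 44.6% of values per library were not whole). Genes passing filterByExpr of edgeR with a minimum count of 10 were fitted by quasi-likelihood in edgeR 4.0.16 (TMM factors, Benjamini-Hochberg adjustment over the 14048 genes). The standard error was the log2 fold change divided by the square root of F. The study's criteria were applied with limma 3.58.1 after voom, in R 4.3.3. log2 CPM used a prior count of 2. The common dispersion was 0.0485, and for genes with few counts, such as AOC2 and PDZD2, counting adds to the spread between libraries. Promoter windows and gene positions came from RefSeq and GENCODE v29, matched by gene number and symbol.

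The 10 genes and the lists were chosen with earlier results of these data known. Named were the 10 genes, TPX2, genes of the wider list past the criteria, the most abundant gene of each role, and the genes nearest to AOC1 and ODC1 in profile. MYC, DHPS, DOHH, EIF5A2, AOC3, HDC, HRH1, HRH2, ATP13A2 and ATP13A3 were named after their values were seen. Alternatives were other normalizations and filters, DESeq2 1.42.0, the replicate number as a block, and each library left out.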

Additional observations from a re-analysis of the deposited data

How the results depend on the processing

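Across the alternatives, none of the 9 genes other than AOC1 reached an adjusted p under 0.05. The number of genes called at that threshold was 111 with DESeq2 (33 higher, 78 lower) and 0 to 23 with each library left out, where the lone library of a group is assumed to vary like the other group. The genes past the DEG criteria numbered 1018 to 3515 with a library left out. Of the 9 genes 1 to 3 were then past the criteria. With library size only, AMD1 and SMS turned to −0.025 and −0.029, and the median of the wider list was −0.003. That median was 0.041 with no filter on low counts, 0.04 with the replicate number as a block, and 0.005 to 0.091 with a library left out. The median of the 9 genes ranged from −0.368 (without shTPX2 1) to 0.122 with a library left out. With a library left out, values ranged from −0.404 to 1.165 for ODC1, −0.154 to 0.235 for AMD1, −0.065 to 0.167 for SMS, −1.649 to 0.524 for SAT1 and −0.421 to 0.122 for PAOX. The cause was not tested.

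Same-numbered libraries deviated together weakly (correlation 0.182 over genes, 2 pairs). The numbers are not known to mark a shared day or culture. With the replicate block the DEG criteria gave 1084 higher and 1363 lower genes, the same 2 of the 9 genes (SRM and SMOX) were past them, and ODC1 had a log2 fold change of 0.305 (adjusted p = 0.615 from edgeR).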

Other observations

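The deposited table also gives a mean per group, and for most genes it is not the mean of the 2 libraries of the group listed beside it. The authors' mean TPM equalled the mean of the 2 libraries within 0.006 TPM for 5.24% of the genes in shNC and 4.97% in shTPX2. Multiplied by 3 for shNC and by 4 for shTPX2, the authors' mean TPM came to 2 decimals for 100% of the genes, within a tolerance of 0.0006. For shTPX2 this was fixed in advance, since a mean of 2 values with 2 decimals would also pass when multiplied by 4. Because so few of the authors' means equal those of the 2 libraries, they hold values that were not analysed here. Their number of libraries is not given.

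For AOC1 the authors' mean expected count was 301 in shNC, below the 384 and 509 of both shNC libraries, and 55.5 in shTPX2, below the 98 and 96 of both shTPX2 libraries. The authors' mean TPM for AOC1 was 11.9 in shNC and 2.10 in shTPX2. For SRM it was 174 in shNC and 245 in shTPX2, above all 4 libraries, which measured 51.1 to 89.6 TPM. For ODC1 it was 111 and 104 TPM, above all 4 libraries too. Of the 10 genes, the authors' mean lay outside the range of the group's libraries for 6 in shNC and for 6 in shTPX2. For AMD1, SMOX and PAOX it lay inside in both groups.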
